A study of Mus musculus with 6 samples.

Results

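Ly6a, Ly6c1, Ly6d, Ly6e and Ly6m are genes of the mouse Ly6 family, measured here by RNA-seq in small-intestinal organoids. The 5 genes were chosen by symbol, as the rows of the count table whose Entrez IDs carry these names, out of 24594 IDs in all. Organoids are cultured from intestinal crypts embedded in Matrigel, and these came from the upper (proximal) small intestine of adult mice. All 6 libraries came from the genotype TetON-hYAP/H2B-mCherry, in which doxycycline switches on a human YAP gene together with a red fluorescent histone. The design text gives that YAP as the S127A form, which is constitutively active. The doxycycline group had 1 µg/ml doxycycline for 48 h from passaging, and the control group, of the same genotype, had none, with 3 libraries in each of the 2 groups. EGF, Noggin and R-spondin1 were in the medium of both groups, and the labels do not say whether CHIR99021 or nicotinamide, used for some cultures, were. The labels describe adult crypts as coming from 1 individual per sample, in a protocol shared with other material, so the spread between libraries may also hold technical variation. The cell type that drives the transgene is not given in the sources used here, and with no doxycycline-treated organoids lacking the transgene the drug and the YAP protein cannot be told apart.

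Ly6 proteins are small, cysteine-rich proteins with the three-finger fold of the urokinase receptor (uPAR) family. Most are held on the outer face of the plasma membrane by a glycosylphosphatidylinositol (GPI) lipid anchor, which is built and attached in the endoplasmic reticulum, and many are used as surface markers to sort blood and stem cells. Several members, Ly6a and Ly6e among them, are known as interferon-inducible genes, and Ly6a, which encodes Sca-1, is used in mouse intestine as a marker of the regenerating, fetal-like epithelium that appears after injury.

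All 5 genes sit in 1 cluster on chromosome 15 (assembly GRCm38.p6, also called mm10). Ly6d lies at chr15:74762056-74763567, Ly6m at chr15:74878336-74881704, Ly6e at chr15:74955025-74959904, Ly6a at chr15:74994877-74998031 and Ly6c1 at chr15:75044018-75048920. Ly6e is on the plus strand and the other 4 are on the minus strand. None of the 5 overlaps another gene of the table. RefSeq's promoter table for GRCm38.p6 matched Ly6c1 alone among the 5 members, and it also held 3 of its relatives in the cluster, Ly6c2, Ly6g and Ly6f. The bases just upstream of these genes' first annotated bases are shown because the genes are close copies with different transcript levels in these organoids. Each is printed 5′ to 3′ on the strand of its gene. The letters TATAAA, as in a TATA box, are in capitals, and whether they act as one was not tested.
Ly6c1 (chr15:75048921-75049087, minus strand): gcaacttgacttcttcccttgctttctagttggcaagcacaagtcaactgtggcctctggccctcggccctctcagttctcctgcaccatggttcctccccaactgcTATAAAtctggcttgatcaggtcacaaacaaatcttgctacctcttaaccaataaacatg
Ly6c2 (chr15:75112067-75112221, minus strand): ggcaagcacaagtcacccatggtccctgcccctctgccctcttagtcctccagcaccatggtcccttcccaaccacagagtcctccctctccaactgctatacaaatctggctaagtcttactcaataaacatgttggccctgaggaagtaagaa
Ly6g (chr15:75155011-75155260, plus strand): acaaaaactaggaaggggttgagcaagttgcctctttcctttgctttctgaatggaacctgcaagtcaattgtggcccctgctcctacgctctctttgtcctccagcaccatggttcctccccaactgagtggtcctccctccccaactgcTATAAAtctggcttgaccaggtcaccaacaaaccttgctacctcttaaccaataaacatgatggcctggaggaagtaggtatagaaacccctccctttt
Ly6f (chr15:75268171-75268371, plus strand): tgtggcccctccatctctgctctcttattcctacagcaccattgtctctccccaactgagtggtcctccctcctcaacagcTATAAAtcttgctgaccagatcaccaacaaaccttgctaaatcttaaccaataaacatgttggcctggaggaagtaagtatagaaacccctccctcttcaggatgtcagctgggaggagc
Ly6c1, Ly6g and Ly6f each held 1 TATAAA on the coding strand of the RefSeq promoter window, and Ly6c2 held 0. The same letters occurred in 8.32% of all 32851 windows. The windows were aligned in pairs over their whole length, with gaps at the ends not penalized. They were 82.3 to 88.7% identical over 221 to 273 aligned bases, leaving out gaps. Ly6c1 and Ly6f were closest at 88.7%, and Ly6c1 and Ly6c2 farthest apart at 82.3%. Searched on both strands, GGAATG (the core bound by TEAD factors, the DNA-binding partners of YAP) occurred 0 times in all 4 windows and in 14.7% of all windows. The AP-1 letters TGANTCA, an interferon response element (GAAA followed 2 bases later by another GAAA) and the STAT letters TTCNNNGAA likewise occurred 0 times in the 4 windows, and in 7.81%, 3.44% and 8.3% of all windows. None of these letter strings lies within another, and a window without them says nothing of sites outside it.

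Libraries held 11258768, 12698043 and 16803062 counts in the doxycycline group and 14643817, 11182703 and 8533452 in the control group. Levels are given per library or as mean ± SD of the 3 libraries of a group, in CPM, the usual depth-scaled read count, on library sizes scaled by TMM, which makes the bulk of genes comparable between libraries. The mean correlation of a library's log2 CPM with the others of its group was 0.987 to 0.989 in the doxycycline group, and 0.953, 0.955 and 0.917 in control replicates 1, 2 and 3. Control replicate 3 thus stood apart from the other controls. Members that moved without it are given both ways, as are many of the other results. The labelled epithelial identity was checked against 8 markers, whose summed level was 17900 to 19100 CPM in the doxycycline group and 4620 to 5270 CPM in the control group. Most of the doxycycline sum came from the keratin genes Krt19 (8879 ± 302 CPM, SD, n = 3), Krt8 (4691 ± 294) and Krt18 (1953 ± 80.6). Of the 8 markers 5 were called higher and 2 were not called. Without control replicate 3, 7 were called higher. Cdx1 was called lower, at 16.5 ± 0.910 CPM with doxycycline and 293 ± 60.1 CPM in controls. Marker sums of other cell types were low. They were 51.7 to 54.7 CPM with doxycycline and 25.4 to 46.8 CPM in controls for 15 haematopoietic genes, and 3.24 to 3.54 CPM with doxycycline and 5.56 to 10.8 CPM in controls for 12 endothelial genes. Of the 4 haematopoietic genes tested, Laptm5 was called, at 21.6 ± 1.65 CPM with doxycycline and 1.09 ± 0.938 CPM in controls (SD, n = 3 each). Csf1r (873 reads with doxycycline and 1009 in controls), Itgam (115 and 112) and Cd68 (63 and 109) were not called. Without control replicate 3 Csf1r was called higher (log2 fold change 0.34, edgeR adjusted p = 0.0252). Of the endothelial genes, Esam was called lower (11 reads with doxycycline and 198 in controls) and Tek higher (49 and 16). The Tek call was lost with some libraries left out. For 10 mesenchymal genes the sums were 1.21 to 1.7 CPM with doxycycline and 4.43 to 6.49 CPM in controls. Cd4, Cd8a and Tyrobp among the haematopoietic markers, Kdr among the endothelial ones and Col1a1, Dcn and Lum among the mesenchymal ones had 0 counts in every library. Markers of crypt base columnar stem cells summed to 44.2 to 50.8 CPM with doxycycline and 3930 to 5370 CPM in controls, and enterocyte markers to 19600 to 20900 CPM with doxycycline and 2540 to 4180 CPM in controls. Fewer cells of a type and less RNA per cell cannot be told apart in such bulk libraries, and the part of these shifts in the Ly6 values was not tested.

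With doxycycline, the 5 members moved apart. Ly6m, nearly silent in controls, and Ly6a rose strongly, Ly6d rose less, Ly6e fell, and Ly6c1 stayed near the limit of counting. A gene was called changed where the edgeR quasi-likelihood test gave an adjusted p below 0.05 over all 12909 genes that passed the filter on low counts. Of the 5 members 4 passed the filter, and all 4 were called, 3 higher and 1 lower. Over all tested genes 45.3% were called, 21.7% higher and 23.6% lower, so being called is common in this comparison. The median log2 fold change of all tested genes was -0.08.

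**Figure D1:**
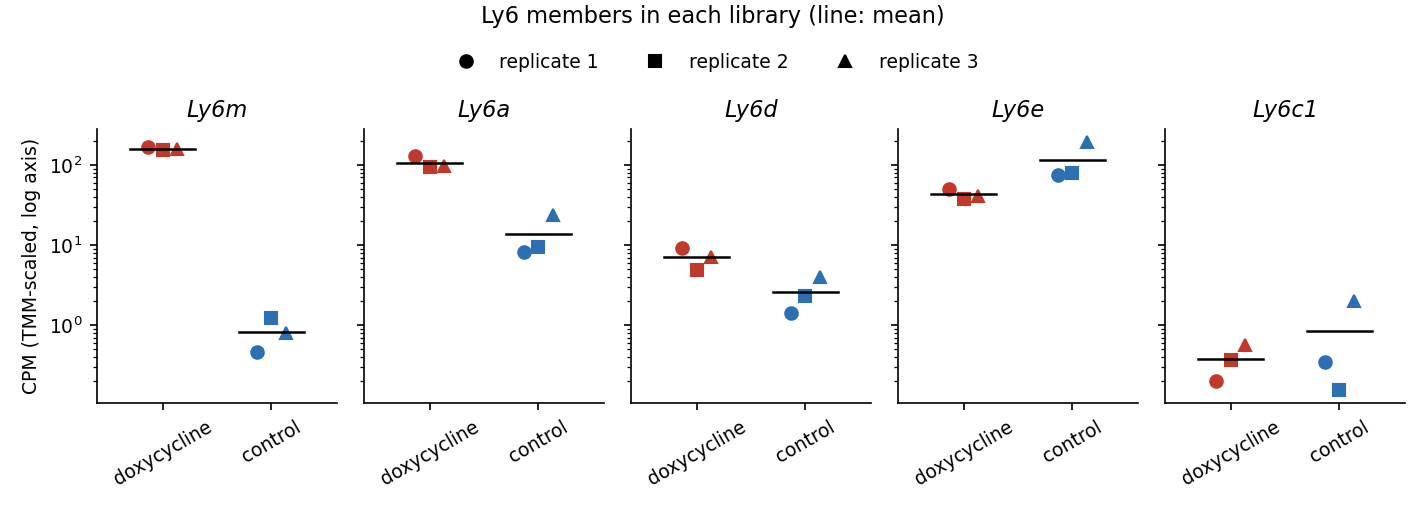
CPM of the 5 Ly6 members in each library on a log axis, with the doxycycline group in red left of the control group in blue, the symbol shape giving the replicate number and the line the group mean. Ly6m is above 150 CPM with doxycycline and below 1.3 CPM in controls, Ly6e is the member that is lower with doxycycline in every library, and control replicate 3 is the highest control for Ly6a, Ly6d, Ly6e and Ly6c1.

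Ly6m, a member whose function is little studied, had 166, 153 and 159.6 CPM in doxycycline replicates 1, 2 and 3, against 0.468, 1.23 and 0.805 CPM in the control replicates. These values rest on 5553 reads in the doxycycline group and 32 in the control group. Ly6m passed the filter in 3 doxycycline and 2 control libraries, too few controls to pass by themselves. With no low-count filter it was also called (log2 fold change 7.60, edgeR adjusted p = 4.31e-06). Every doxycycline library was far above every control library. The fitted log2 fold change was 7.59 (SE 0.336; adjusted p = 4.05e-05 in edgeR), a fitted difference of 193-fold. A rise of at least 4-fold that also passed the test was found for 5.77% of tested genes. The ratio of the summed reads, 199, had an exact 95% interval of 141 to 292, which covers counting error only. Control replicate 3 did not differ from the other controls in this gene, at 0.948 times their mean.

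Ly6a had 130.4, 94.2 and 97.6 CPM in the doxycycline libraries, against 8.25, 9.54 and 23.8 CPM in the controls. The groups did not overlap, which held for 61.3% of all tested genes, and the lowest doxycycline library was well above the highest control. In the edgeR test the log2 fold change was 2.97 (SE 0.435; adjusted p = 0.00194), or 7.82-fold. Control replicate 3 had 2.67 times the mean of the other controls, against a median of 0.992 times over all tested genes, and without it the log2 change was 3.61 (adjusted p = 6.29e-11). That library also had the highest control sums of enterocyte markers (4180 CPM, against at most 2630 CPM in the other controls), of haematopoietic markers (46.8 against at most 30.4 CPM) and of endothelial markers (10.8 against at most 6.23 CPM). The part of these in the Ly6a level was not tested. Blood and vessel cells can also carry Sca-1. Ptprc, which marks all leukocytes, had 2 reads over the doxycycline libraries and 0 over the controls. Other markers of these cells had more reads, among them Laptm5 (748 with doxycycline and 44 in controls), Csf1r (873 and 1009), Esam (11 and 198) and Tek (49 and 16). Whether such cells added to the Ly6a reads was not tested.

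Ly6d, known as a marker of B-lineage commitment and of keratinocytes, had few reads. Its levels were 9.20, 4.90 and 7.21 CPM in the doxycycline libraries and 1.40, 2.31 and 4.03 CPM in the controls, from 246 reads with doxycycline and 94 in controls. The groups did not overlap, though doxycycline replicate 2 and control replicate 3 came close to each other. Its log2 fold change by edgeR was 1.49 (SE 0.440, adjusted p = 0.0303), or 2.81-fold. This call was lost in 4 of the 6 fits that left out a library: without doxycycline replicate 1 (adjusted p = 0.104) or 3 (0.0858), and without control replicate 1 (0.0693) or 2 (0.0808). Without control replicate 3 the log2 change was 1.97 (adjusted p = 2.57e-05). Markers of stratified or gastric epithelium, 10 in number and 3 of them at 0 throughout, summed to 6.94 to 8.9 CPM with doxycycline and 0.77 to 1.31 CPM in controls. Most of the sum with doxycycline was the basal keratin gene Krt14 (6.13 ± 0.557 CPM, SD, n = 3, with 0 reads in the controls), the only 1 of the 10 tested. The others did not move as 1 set. Krt5 had 50 reads with doxycycline and 24 in controls, and Gkn1 (6 and 0), Krt13 (4 and 0) and Krt6a (4 and 0) had few. Tff1 (1 and 10) and Trp63 (0 and 4) had more reads in controls.

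Ly6e, a broadly expressed member known for limiting coronavirus entry into cells, was the exception in direction. It had 49.9, 38.0 and 41.6 CPM in the doxycycline libraries, against 74.7, 80.0 and 196.0 CPM in the controls. Every doxycycline library was below every control. The log2 fold change by edgeR was -1.44 (SE 0.394, adjusted p = 0.0232), or 2.71-fold lower. Much of its size came from control replicate 3, which had 2.53 times the mean of the other controls. Without that library Ly6e still fell, by 0.83 on the log2 scale (adjusted p = 1.1e-06), while the call was lost without doxycycline replicate 1 (adjusted p = 0.0636), 2 (0.0929) or 3 (0.0855).

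Ly6c1, a surface marker of endothelial cells and of subsets of monocytes and T cells, had 2, 4 and 8 reads in the doxycycline libraries and 6, 2 and 20 in the controls. In CPM these were 0.202, 0.370 and 0.565 with doxycycline and 0.351, 0.154 and 2.01 in controls, and the groups overlapped. It did not pass the filter and was not tested. The ratio of summed reads scaled by library size was 0.574 (exact 95% interval 0.279 to 1.13, counting error only). Of the 28 control reads 20 lay in control replicate 3, and without that library the log2 ratio turned from -1.15 to 0.60, so no direction can be read.

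The make-up of the group shifted with these changes. Summed over the 5 members, the level was 356, 290.2 and 306.6 CPM in the doxycycline libraries and 85.16, 93.22 and 226.6 CPM in the controls. Ly6m gave 46.7 to 52.6% of the summed CPM with doxycycline and 0.355 to 1.32% in controls. Ly6a gave 31.8 to 36.6% with doxycycline and 9.68 to 10.5% in controls, and Ly6e 13.1 to 14% with doxycycline and 85.8 to 87.7% in controls. The share of Ly6d overlapped between the groups, at 1.69 to 2.59% with doxycycline and 1.65 to 2.48% in controls. Control replicate 3 had the highest control sum, yet Ly6a and Ly6e made up much the same shares in all 3 controls.

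Levels of different genes were compared per kilobase of exon, using the union of GENCODE M21 exons of each gene, since longer transcripts collect more reads. In the doxycycline group the order was Ly6a (107 ± 19.9 CPM per kb, SD, n = 3), Ly6m (84.7 ± 3.63), Ly6e (17.5 ± 2.46), Ly6d (9.55 ± 2.89) and Ly6c1 (0.245 ± 0.117). Ly6a thus stood above Ly6m per kilobase although Ly6m had more reads. Their ranges, 93.8 to 130 and 81 to 88.3 CPM per kb, did not touch, but the difference of their means is close to the SD of Ly6a and was not tested. In controls the order was Ly6e (47.5 ± 27.9 CPM per kb), Ly6a (13.8 ± 8.57), Ly6d (3.47 ± 1.79), Ly6c1 (0.543 ± 0.66) and Ly6m (0.443 ± 0.203), and the last pair overlapped in range.

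Some Ly6 genes are near copies, so reads may be split or shared between them, and the aligner, its treatment of reads with several matches, the use of strand and the read length are not given in the sources used here. Of all 50-base stretches in the longest coding transcript of Ly6c1, 36.7% also occur in another gene's transcript, mainly of Ly6c2 and Ly6a. The share was 10.0% for Ly6a, mostly shared with Ly6c1 and Ly6i, 1.58% for Ly6m, and 0 for Ly6d and Ly6e. The Ly6c1 count is therefore uncertain beyond its size. Ly6a, Ly6c1, Ly6c2, Ly6f, Ly6g and Ly6i taken as a single summed row had a log2 fold change of 2.95 (SE 0.451, edgeR adjusted p = 0.00231), next to 2.97 for Ly6a by itself. Ly6a alone held 3688 reads with doxycycline and 501 in controls, and Ly6f, the next with doxycycline, 247 and 19. The sum thus follows Ly6a and cannot show how reads were split. Ly6f and Ly6g shared 0 and 0.448% of their 50-base stretches with other genes.

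**Figure D2:**
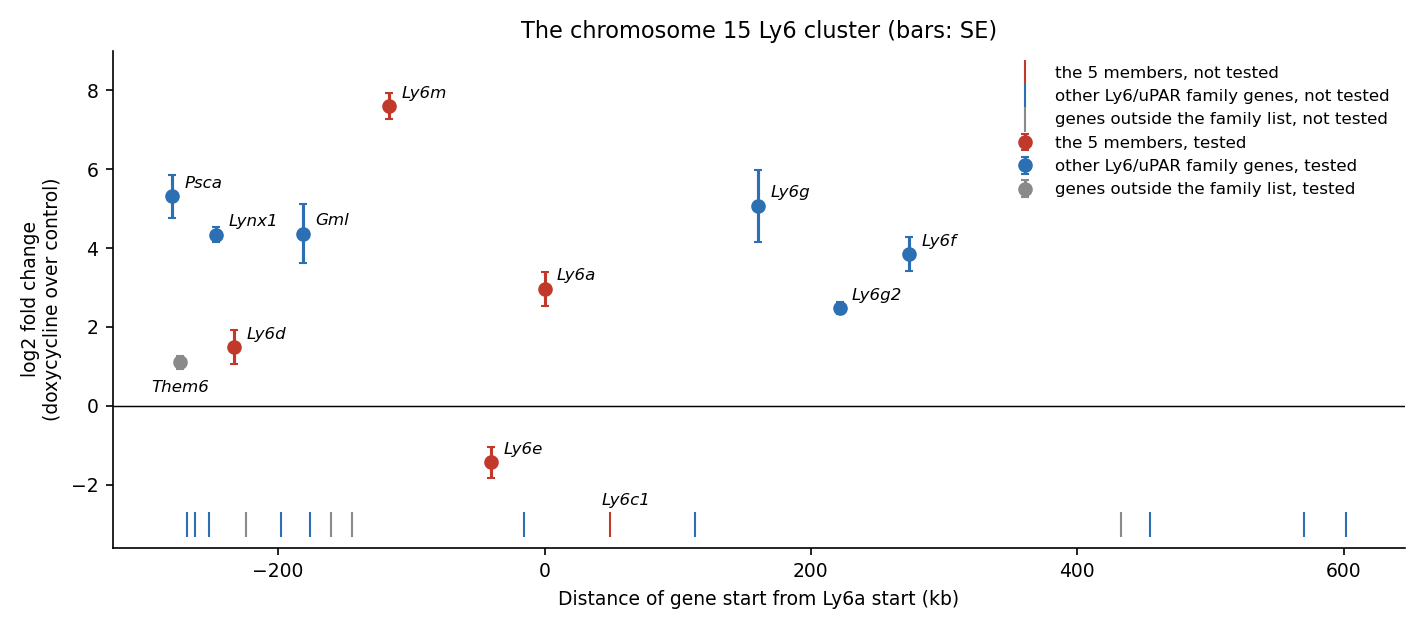
Log2 fold change, doxycycline over control, of each gene in the chromosome 15 cluster against the distance of its start from that of Ly6a in kilobases, with the SE as bars and genes that were not tested as ticks at the bottom. The 10 genes above the zero line were called higher and Ly6e, at -39.9 kb, lies below it. Ly6g rests on 2 control reads, so its height is uncertain.

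The tested neighbours of the 5 genes in the cluster rose as well. Across the 883 kb from Psca to Gpihbp1 the table held 26 genes: the 5 members, 16 others of the Ly6/uPAR family list and 5 outside it. Among those outside it was Ly6g6g, a Ly6 gene by name, with 0 reads in all 6 libraries. Of the 16 other family genes 6 were tested and all 6 were called higher, set against 21.7% of all tested genes. Of the tested genes there, Gml and Ly6g passed the filter in no control library and Ly6f in 1. A gene of that kind was tested only because it is high with doxycycline. The member Ly6m passed it in 2 control libraries, also too few without the doxycycline group. Of the 5 genes outside the list, Them6 was tested and rose (50.7 ± 1.80 CPM with doxycycline and 23.7 ± 3.80 CPM in controls, SD, n = 3 each; log2 fold change 1.10, edgeR adjusted p = 0.00232). Ly6e was the only tested gene of the 11 in the window that fell.

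Psca, the prostate stem cell antigen, a surface protein of several epithelia, had 162.7, 147.5 and 133.6 CPM in the doxycycline libraries and 1.29, 3.69 and 6.54 CPM in the controls. The edgeR fit gave it a log2 fold change of 5.31 (SE 0.547, adjusted p = 4.86e-04), and 5.98 without control replicate 3. Lynx1, which encodes a modulator of nicotinic acetylcholine receptors in the brain, had 47.8, 44.9 and 44.7 CPM with doxycycline, against 2.11, 2.46 and 2.21 CPM in the controls (log2 fold change 4.34, SE 0.183, adjusted p = 3.15e-05). Ly6g2 had 168.3, 146.4 and 148.8 CPM with doxycycline and was already present in the controls, at 26.1, 26.9 and 29.9 CPM (log2 fold change 2.48, SE 0.157, adjusted p = 9.07e-05).

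Ly6f, Gml and Ly6g, the last a marker of neutrophils, were low. Ly6f had 8.29, 7.12 and 6.22 CPM in the doxycycline libraries and 0.351, 0.308 and 0.906 CPM in the controls (log2 fold change 3.84, SE 0.431, edgeR adjusted p = 6.63e-04). Gml had 4.96, 2.68 and 2.61 CPM with doxycycline, against 0, 0.231 and 0.302 CPM in the controls, and its log2 fold change of 4.36 (adjusted p = 0.00372) was 3.64 without control replicate 1 and 4.95 without control replicate 3. Gml overlaps Gml2, which had 36 reads with doxycycline and 8 in controls. Ly6g had 66 reads in the doxycycline libraries and 2 in the controls, a ratio of 37.9 (exact 95% interval 10.1 to 320, counting error only), and it was called (adjusted p = 0.00446). The ratio was 25.8 without doxycycline replicate 1, 25.6 without control replicate 2 and 28.8 without control replicate 3. Without control replicate 1, which held both control reads, Ly6g was at least 14.5-fold higher with doxycycline (against 3 counts over the control group). The other listed family genes of the cluster were not tested. They included Gml2, Slurp1 (8 reads with doxycycline and 6 in controls), Ly6i (2 with doxycycline and 0 in controls) and Ly6h (2 with doxycycline and 2 in controls). Lypd2, Slurp2, Ly6k, Ly6c2, Ly6l and Gpihbp1 had 0 reads in all 6 libraries.

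Over the whole genome the family was mixed. The family list held 38 genes outside the 5 members, and left out Ly6g6g and Ly6g6f, which are Ly6 genes by name. Of the 38, 13 had no read and 16 were tested. Of those tested, 9 were called higher, 1 lower and 6 neither, with a median log2 fold change of 2.07 beside -0.08 over all genes. The shares of all tested genes were 21.7% higher and 23.6% lower. Among the called family genes, Gml, Ly6g, Ly6f, Ly6g6c and Cd177 were tested only because of the group where they are high. Without control replicate 3, 11 of 17 tested were higher and 1 lower, where 34.9% of all tested genes were higher and 35.1% lower. Plaur, which encodes uPAR itself, rose to 105.7, 99.1 and 94.5 CPM with doxycycline, against 10.6, 16.5 and 26.0 CPM in controls (log2 fold change 2.50, SE 0.324, edgeR adjusted p = 0.00116). Lypd1, another modulator of nicotinic receptors, had 67.1, 71.9 and 79.6 CPM with doxycycline, against 23.0, 23.9 and 22.4 CPM in controls (log2 fold change 1.66, SE 0.150, adjusted p = 2.69e-04), although it overlaps Gpr39, so reads of these genes may be mixed.

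Ly6g6c rested on 61 reads with doxycycline and 4 in controls, all 4 of them in control replicate 3. It passed the filter in 3 doxycycline and 0 control libraries. Its log2 fold change of 3.91 (edgeR adjusted p = 0.0149) was 3.18 without control replicate 1 and 7.50 without control replicate 3, and the call was lost without doxycycline replicate 2 (adjusted p = 0.0548) or 3 (0.0592). Cd177, a neutrophil surface antigen also made by some epithelia, was the family gene that fell. It passed the filter in 0 doxycycline and 3 control libraries. It had 0.405, 0.648 and 0.565 CPM with doxycycline against 4.09, 4.16 and 18.0 CPM in controls, a log2 fold change of -3.97 (SE 0.762, adjusted p = 0.00574) that was -2.89 without control replicate 3. Lypd8, whose product keeps flagellated bacteria off the colonic epithelium, was not called. It had 454, 397 and 387 CPM with doxycycline and 323, 311 and 1102 CPM in controls (adjusted p = 0.457), and without control replicate 3 its direction turned to a log2 fold change of 0.39 (adjusted p = 1.99e-04).

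**Figure D3:**
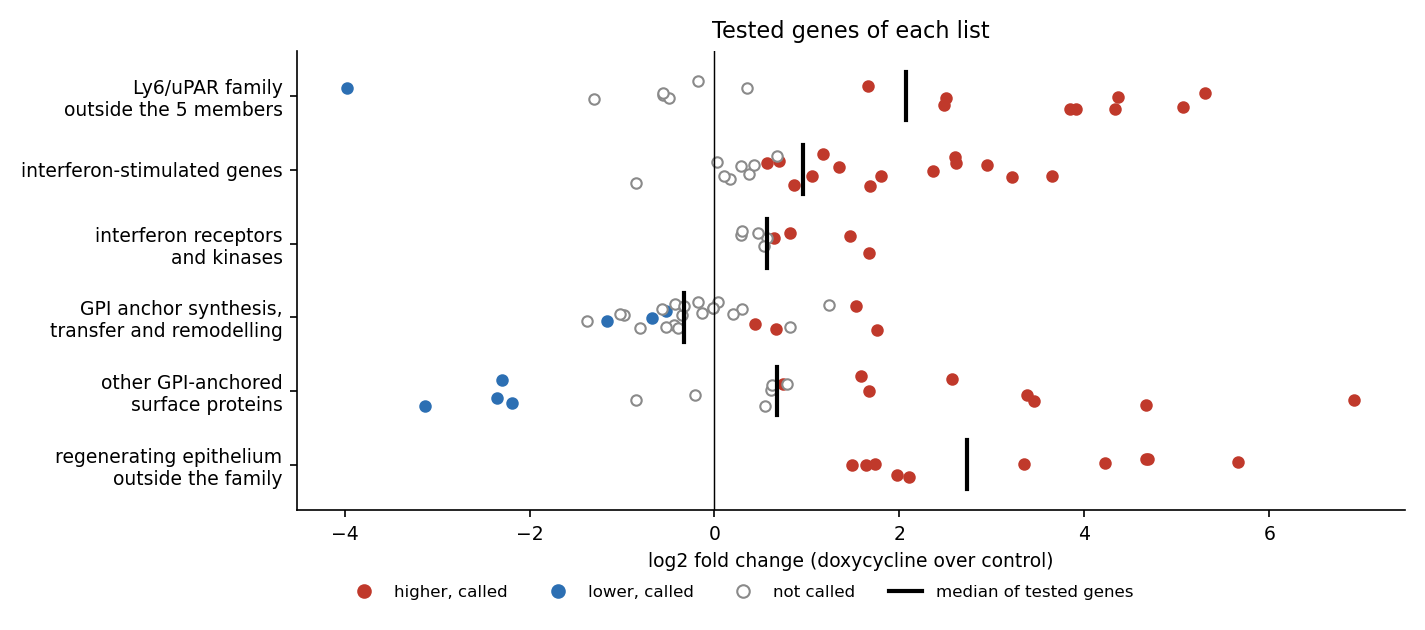
Log2 fold change, doxycycline over control, of every tested gene of 6 lists, in red where called higher, in blue where called lower and open where not called, with the list median as a black bar. The family outside the 5 members (median 2.07) and the regenerating epithelium markers (median 2.73) lie to the right, and the GPI anchor synthesis genes spread on both sides of zero (median -0.33).

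Because Ly6a and Ly6e are known interferon targets, the interferon pathway was described beside them. Of 30 interferon-stimulated genes 22 were tested, of which 14 were called higher and 0 lower (median log2 fold change 0.96). Over all tested genes 21.7% were higher and 23.6% lower. The count was 18 higher and 1 lower without control replicate 3, 9 higher without doxycycline replicate 2, 7 higher without doxycycline replicate 3, and 9 higher and 1 lower under scaling by total counts alone, under which the median of all genes was -0.52. Without doxycycline replicate 2 or 3, 14.9% and 14.8% of all tested genes were higher. The shares of all tested genes were 34.9% higher and 35.1% lower without control replicate 3, and 13.5% and 39.7% under total counts. Mx1, an antiviral GTPase, had 5.27 ± 1.32 CPM with doxycycline and 0.563 ± 0.0822 CPM in controls (SD, n = 3 each; log2 fold change 3.22, edgeR adjusted p = 5.18e-04). Xaf1, an interferon-induced regulator of cell death, had 3.49 ± 0.222 CPM with doxycycline and 0.575 ± 0.211 CPM in controls (log2 fold change 2.61), and the antiviral enzyme gene Rsad2 had a log2 fold change of 2.94. Ly6a and Ly6e, both counted among interferon targets, went in opposite directions here.

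Of 9 interferon receptor and kinase genes, all tested, 4 were called higher and 0 lower (median 0.57), beside 21.7% and 23.6% of all tested genes. The count was 8 without control replicate 3 and 2 under scaling by total counts alone, where 34.9% and 13.5% of all tested genes were higher. Ifngr1, a chain of the interferon-gamma receptor, had 552 ± 20.7 CPM with doxycycline and 199.96 ± 16.9 CPM in controls (log2 fold change 1.46, edgeR adjusted p = 4.45e-04). Ifnlr1, the receptor chain for the type III interferons of epithelia, had 87.7 ± 5.86 CPM with doxycycline and 27.5 ± 6.90 CPM in controls (log2 fold change 1.67, adjusted p = 0.00126). Ifnar1, of the type I receptor, had 103.9 ± 4.38 CPM with doxycycline and 58.9 ± 9.72 CPM in controls (log2 fold change 0.82, adjusted p = 0.00821), which was not called under scaling by total counts (adjusted p = 0.105). The kinase gene Jak1 had 92.1 ± 2.94 CPM with doxycycline and 74.9 ± 24.3 CPM in controls (adjusted p = 0.339), and it was called higher without control replicate 3 (log2 fold change 0.61, adjusted p = 3.61e-06).

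The genes that build the GPI anchor were mostly not called. Of 29 genes for anchor synthesis, transfer and remodelling 28 were in the table and 27 were tested. Of these, 4 were called higher, 3 lower and 20 neither (median log2 fold change -0.33), beside 21.7% higher and 23.6% lower of all tested genes. Without control replicate 3 the counts were 9 higher and 10 lower of 28 tested, near the shares of all tested genes in that fit (34.9% higher and 35.1% lower). With each other library left out 2 were higher and 0 to 3 lower, where 14.8 to 18.8% of all tested genes were higher and 14.3 to 20.5% lower. Under scaling by total counts 2 were higher and 14 lower, where 13.5% of all tested genes were higher and 39.7% lower. Mppe1, a phosphodiesterase that remodels the anchor for export from the endoplasmic reticulum, had 32.7 ± 3.51 CPM with doxycycline and 9.66 ± 0.107 CPM in controls (log2 fold change 1.76, edgeR adjusted p = 3.5e-04). Pigg, which adds an ethanolamine phosphate to the anchor, had 51.9 ± 1.93 CPM with doxycycline and 17.9 ± 4.11 CPM in controls (log2 fold change 1.53, adjusted p = 0.00133). Pigw, which acylates its inositol, fell to 9.83 ± 1.12 CPM with doxycycline, against 21.98 ± 6.98 CPM in controls (log2 fold change -1.16, adjusted p = 0.0147), a call lost without doxycycline replicate 1 (0.0635) or 3 (0.0651). Pigh, a subunit of the enzyme that starts the anchor, was at 74.4 ± 4.40 CPM with doxycycline and 75.0 ± 15.7 CPM in controls (adjusted p = 0.967).

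Other proteins that carry the anchor changed in both directions. Of 24 such genes 18 were tested, 8 were called higher and 4 lower (median 0.68), beside 21.7% and 23.6% of all tested genes. Without control replicate 3, 10 were higher and 6 lower, beside 34.9% and 35.1% of all tested genes in that fit. Cd55, which protects cells from complement, had 174 ± 17.3 CPM with doxycycline and 16.7 ± 0.902 CPM in controls (log2 fold change 3.38, edgeR adjusted p = 5.12e-05). Mesothelin (Msln) had 288 ± 28.3 CPM with doxycycline and 11.3 ± 3.02 CPM in controls (log2 fold change 4.67). Cd24a, a surface marker high in crypt progenitors and Paneth cells, fell to 69.2 ± 3.69 CPM with doxycycline, against 606 ± 34.1 CPM in controls (log2 fold change -3.13). The glypican gene Gpc4 had 23.2 ± 1.70 CPM with doxycycline and 26.9 ± 5.89 CPM in controls (adjusted p = 0.437) and was called lower without control replicate 3 (adjusted p = 0.0149) and under scaling by total counts (0.032).

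The markers of regenerating epithelium, the setting in which Sca-1 is used in the intestine, were called higher wherever they could be tested. Of 12 such genes outside the family 10 were tested and all 10 were higher (median 2.73), also without control replicate 3, and 8 with any other library left out or under scaling by total counts alone. Over all tested genes 21.7% were higher in the reported fit and 34.9% without control replicate 3. The share was 14.8 to 18.8% with any other library left out and 13.5% under total counts. Msln belongs to this list too. The alarmin Il33 had a log2 fold change of 5.66 and the keratin gene Krt7 one of 4.69.

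The genes whose levels followed each member most closely were found from the root-mean-square difference of centred log2 CPM over the 6 libraries, given in log2 units, among 10135 protein-coding genes. For Ly6a the closest were the mucin gene Muc3 (0.182), the membrane-repair gene Myof (0.194) and the apolipoprotein gene Apoa1 (0.212), against a median of 1.66 over all candidates. Muc3 had 151 ± 8.56 CPM with doxycycline and 21.7 ± 13.7 CPM in controls. For Ly6m they were Serpinb9b (0.2), a serine protease inhibitor gene with 432 ± 66.9 CPM with doxycycline and 2.77 ± 0.642 CPM in controls, the ectonucleotidase gene Nt5e (0.412) and Stk32c (0.458), against a median of 3.72. Nt5e, itself GPI-anchored, had 86.0 ± 5.01 CPM with doxycycline and 0.739 ± 0.446 CPM in controls.

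For Ly6e the nearest genes were Nhp2 (0.0665), Phf5a (0.0714) and Rp9 (0.0732), against a median of 0.883. Nhp2 encodes a protein of small nucleolar ribonucleoproteins and Phf5a a spliceosome subunit. Phf5a had 38.9 ± 5.82 CPM with doxycycline and 103.3 ± 63.3 CPM in controls. Its control spread was wide like that of Ly6e, which the choice by likeness over the same libraries favours. Its log2 fold change was -1.41, and -0.77 without control replicate 3. For Ly6d they were the acetylcholine receptor subunit gene Chrnb1 (0.135), the interleukin-17 receptor gene Il17re (0.208) and Wtip (0.226), against a median of 0.978. All of these differences rest on the same 6 libraries in 2 groups and carry no test.

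**Figure D4:**
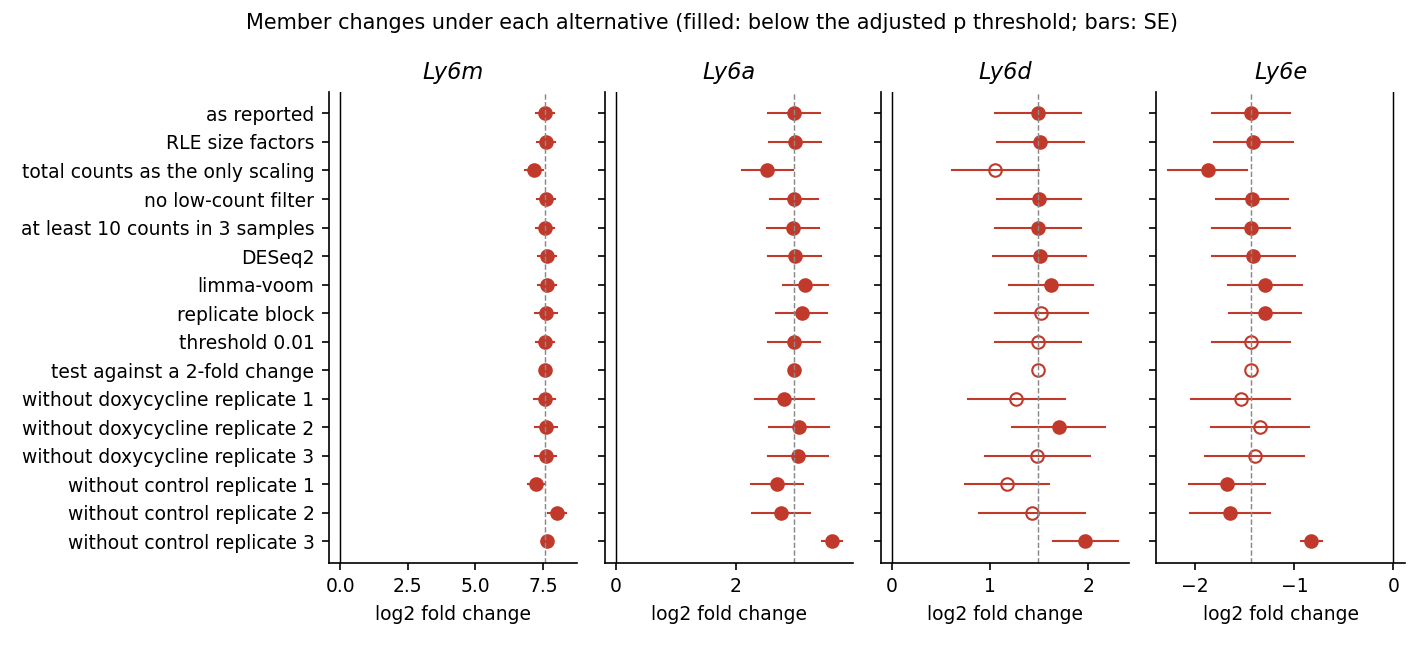
Log2 fold change, doxycycline over control, of the 4 tested members under the reported settings and 15 alternatives, filled where the call held and open where it was lost, with the SE as bars and the reported value as a dashed line. Ly6m and Ly6a are filled in every row, Ly6d in 7 of 15 alternatives and Ly6e in 10 of 15, and no point crosses zero.

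The 4 tested members differed in how far their calls held over 15 alternative settings. Ly6m (7.16 to 8.02) and Ly6a (2.53 to 3.61) were called in 15 of 15. Ly6e kept its direction in all 15, at -1.88 to -0.83, and was called in 10. Ly6d kept its direction in all 15 too, at 1.05 to 1.97, and was called in 7. Ly6d was not called under scaling by total counts alone (adjusted p = 0.0823), where Ly6e fell by 1.88 on the log2 scale (adjusted p = 0.00741).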

How the data were processed

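Per the labels' protocols, RNA came from an RNeasy column, libraries from the TruSeq RNA kit and reads from a NextSeq sequencer. The authors deposited whole-number read counts per Entrez gene ID for 6 libraries, aligned to mm10 according to the genome build in the submitters' processing notes. How reads were aligned and counted, with which annotation, strand setting and filters, is not given in the sources used here. RefSeq's gene table of GRCm38.p6 gave symbols for 24570 of 24594 IDs, and the other 24 (2.88 to 4.43% of a library's counts) stayed in. Ly6m was matched to GENCODE M21 through its RefSeq synonym.

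Groups followed the labelled treatment. Counts of all 6 libraries were tested with edgeR 4.0.16 (R 4.3.3), using its expression filter by group (minimum count 10), TMM factors (0.879, 0.852 and 0.843 with doxycycline, 1.169, 1.163 and 1.166 in controls), the robust quasi-likelihood F-test (two-sided) and Benjamini-Hochberg adjustment over 12909 genes, with a threshold of 0.05. CPM are given per library or as mean ± SD. Log2 CPM for likeness used a prior count of 2, and candidates had a mean of at least 5 CPM. Exact binomial intervals of 95% leave out everything but counting error, as PCR copies of a molecule could not be told apart. The fit was tested on simulated data. The human transgene was not analysed here, so no row checks its induction.

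The members and gene lists were chosen with earlier results of these data known. Family genes were named where they lie in the cluster or passed the test, and in each other list the 3 tested genes with the smallest adjusted p and the 1 with the largest. Some genes that this rule names are not reported here, though they stayed in the counts. Lypd8, Them6, Laptm5, Ptprc, Krt14 and the markers given with 0 counts were named after their values were seen. So were Krt19, Krt8, Krt18, Cdx1, Csf1r, Itgam, Cd68, Esam, Tek, Krt5, Gkn1, Krt13, Krt6a, Tff1 and Trp63. Alternatives were RLE factors, total counts, other low-count filters, DESeq2 1.42.0, limma-voom (limma 3.58.1), a replicate block, each library left out, a threshold of 0.01 and a test against a 2-fold change. List counts without control replicate 3 were added after seeing the data.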

Additional observations from a re-analysis of the deposited data

How the results depend on the processing

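Ly6m, Ly6a and the summed row of close copies were called in the same direction in all 15 alternatives, and with each library left out their log2 fold changes were 7.26 to 8.02, 2.69 to 3.61 and 2.68 to 3.63. Ly6d was not called with total counts as the only scaling (1.05, adjusted p = 0.0823) or with a replicate block (1.52, adjusted p = 0.0536). Ly6d (1.49) and Ly6e (-1.44) were not called at a threshold of 0.01 or in the test against a 2-fold change (adjusted p = 0.232 and 0.225). With each library left out Ly6d was 1.17 to 1.97, and Ly6e -1.68 to -0.83. The cause was not tested. The log2 ratio of Ly6c1 was -1.13 with RLE factors, -1.60 with total counts and -1.65 to 0.60 with each library left out, and its adjusted p was 0.449 in the fit without a low-count filter. It had no value with a filter of 10 counts in 3 samples or with DESeq2, limma-voom, the block, the threshold of 0.01 and the 2-fold test, which used the filtered genes.

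The number of genes called was 5850, and 3477 at a threshold of 0.01, 2112 against a 2-fold change, and 3836 to 9286 with each library left out, highest without control replicate 3. With total counts 25.4% of calls were higher, against 47.9% with TMM. Whether replicate numbers pair the samples is not known, as the labels give no shared origin. Same-numbered libraries correlated at -0.299, 0.119 and -0.187 in their deviations from the group means, and not every library correlated best with its own number. Such deviations cancel over the 3 libraries of a group, so these few correlations cannot settle the question. The block gave 4509 calls, and Ly6d was the one member whose call it changed. Depth limits genes with under 30 control reads, among them Ly6c1, Ly6f, Ly6g, Gml, Ly6g6c, Mx1, Xaf1, Nt5e and Tek.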
